A study of Mus musculus with 19 samples.

Results

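DNA replication is carried out by a defined set of proteins, and 46 of their genes were followed here in retinal ganglion cells (RGCs) of the mouse embryo. They were listed by name, with earlier results of these data known, as genes for origin licensing, the replicative helicase, the replication fork, the DNA polymerases, the supply of deoxynucleotides and the packaging of new DNA. All 46 were found among the 47069 genes of the count tables by their Ensembl identifiers. The study compared RGCs that project to the same side of the brain (iRGCs) with RGCs that cross the midline (cRGCs), at embryonic day E16.5. All embryos were C57/DBA F1, of pooled sexes, with the genotype labelled WT, and all carried the Sun1-GFP reporter, a nuclear envelope protein joined to GFP that is made once Cre recombinase has removed a stop cassette. iRGCs were GFP-positive cells sorted from retinas of Slc6a4-Cre embryos, in which the serotonin transporter promoter (the ET33 Sert-Cre line) drives Cre. cRGCs were GFP-positive cells sorted from retinas of Pou4f2-Cre embryos, in which Cre was placed in the Brn3b locus, after the ventrotemporal (VT) region had been dissected away.

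Each population gave 3 RNA-seq libraries. Reads counted on genes numbered 28193178, 29759011 and 30874653 in iRGC replicates 1, 2 and 3, and 28274471, 30454674 and 33638083 in cRGC replicates 1, 2 and 3. The reporter stays on in every descendant of a cell in which Cre acted. The populations differed in Cre driver, in dissected region and in projection, and the paper describes the iRGCs as younger on average at E16.5. These differences cannot be told apart. From the same comparison the paper already reported cell cycle terms among the genes of iRGCs, and it related them to that younger age.

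Replication begins when the origin recognition complex, with Cdc6 and Cdt1, loads the ring of MCM2 to MCM7 onto DNA in G1 phase. In S phase Cdc45 and the GINS complex turn that ring into an active helicase, polymerases copy both strands under the sliding clamp PCNA, and ribonucleotide reductase supplies the precursors. Retinal progenitors run through this cycle, while RGCs are among the first retinal neurons to leave it. Many of these genes are known targets of the E2F factors, which the retinoblastoma (Rb) family restrains outside S phase.

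Of the 46 genes, 45 had higher transcript levels in iRGCs with an adjusted p below the threshold of 0.1, 0 had lower levels and 1 (Rfc1) did not pass. The test was edgeR's quasi-likelihood test, with Benjamini-Hochberg adjustment over 15941 tested genes. By the same rule 23.3% of all tested genes were higher in iRGCs and 23.1% lower. With a log2 fold change above 1 as well, 39 of the 46 passed, against 12.1% of all tested genes. In 45 of the 46 genes every iRGC library lay above every cRGC library, which held for 27.1% of tested genes, while 28.2% of tested genes had every cRGC library on top and 0 of the 46 did. Fold changes are log2 values of iRGCs over cRGCs. Their median was 1.76 over the 46 genes, with quartiles of 1.40 and 2.31, and -0.00307 over all tested genes. 18 genes lay above 2, 21 between 1 and 2, and 7 at or under 1.

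Levels below are CPM, counts scaled to library size after TMM normalization, which corrects for the makeup of each library. The levels of the 46 genes added up to 4702, 4424 and 4434 CPM in iRGC replicates 1, 2 and 3, and to 1146, 1681 and 1439 CPM in cRGC replicates 1, 2 and 3. The populations were well separated, but the transcripts were far from absent in cRGCs. The median gene kept 29.6% of its iRGC level there, with a range from 14.2% for Orc1 to 88.9% for Rfc1, and the lowest count of any of these genes in any library was 30. In bulk samples, fewer cells of a type and less RNA per cell cannot be told apart.

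**Figure D1:**
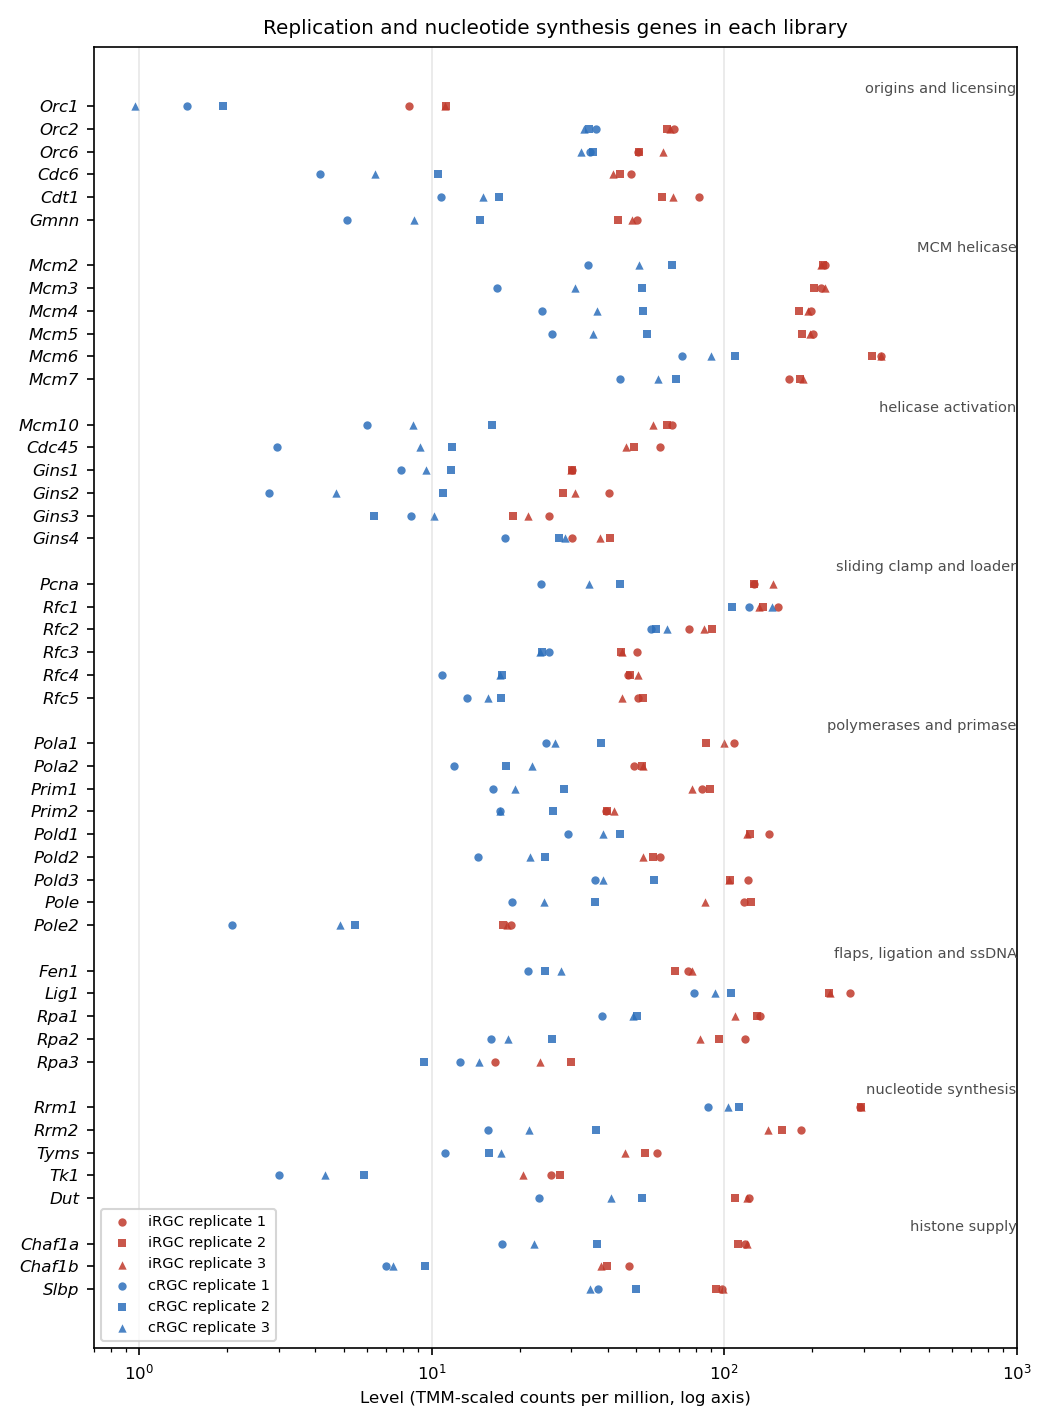
Level of each of the 46 genes in each library, in TMM-scaled CPM on a log axis, with iRGC libraries in red, cRGC libraries in blue and a symbol for each replicate number. The iRGC points lie to the right of the cRGC points in 45 genes and overlap with them in Rfc1.

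Because many of these genes are known E2F targets, the DNA before some of their start sites is shown first. RefSeq's table for GRCm38 held promoter windows, from 250 bases before to 50 bases after a start, for 38 of the 46 genes. The E2F motif was searched on either strand as TTCCCGC and equally as TTCGCGC, with further spellings being TTGCCGC and also, last, TTGGCGC. A match on one strand may overlap a match on the other. The 5 stretches below are the 100 bases that end just before the start, read 5′ to 3′ on the strand of the gene, with the motif in capitals. Mcm6, Rrm1 and Chaf1a show it close to the start, and Mcm10 and Orc6 stand for genes without it anywhere in their windows. Mcm6 lies at chr1:128359706-128359805 on the minus strand, Rrm1 at chr7:102441595-102441694 on the plus strand, Chaf1a at chr17:56040316-56040415 on the plus strand, Mcm10 at chr2:5012792-5012891 on the minus strand and Orc6 at chr8:85299532-85299631 on the plus strand (GRCm38).
Mcm6: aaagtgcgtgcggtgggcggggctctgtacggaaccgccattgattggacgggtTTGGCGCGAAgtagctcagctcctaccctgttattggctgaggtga
Rrm1: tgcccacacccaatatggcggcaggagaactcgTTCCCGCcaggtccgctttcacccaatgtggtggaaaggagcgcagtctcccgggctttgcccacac
Chaf1a: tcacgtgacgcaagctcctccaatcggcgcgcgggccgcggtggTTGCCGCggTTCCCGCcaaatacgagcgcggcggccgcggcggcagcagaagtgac
Mcm10: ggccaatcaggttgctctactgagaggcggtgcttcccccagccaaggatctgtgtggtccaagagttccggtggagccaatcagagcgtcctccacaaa
Orc6: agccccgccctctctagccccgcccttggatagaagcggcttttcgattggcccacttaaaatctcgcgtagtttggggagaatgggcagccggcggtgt

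The capitals in Mcm6 are a pair of matches, 1 on each strand, that overlap. Chaf1a has 2 separate matches. At least 1 E2F motif was present in the windows of 24 of the 38 genes (63.2%), and in 26 of their 44 windows (59.1%). Of all 32851 windows listed, 9.57% held it, and of the windows of tested protein-coding genes 16.1%. The CCAAT box (CCAAT on either strand) was in 59.1% of the 44 windows, in 37.4% of all windows and in 37.3% of those of tested protein-coding genes. The CHR element (TTTGAA on either strand, or its variant spelled TTCGAA), known from genes of late cell cycle phases, was in 15.9% of the 44 windows, 19.2% of all windows and 13.3% of those of tested protein-coding genes. The median log2 fold change was 1.84 in the 24 genes with an E2F motif and 1.63 in the 14 without. Of the genes shown above without one, Mcm10 had a log2 fold change of 2.61 and Orc6 of 0.67. Mcm6, Rrm1 and Chaf1a, shown with it, had 1.89, 1.54 and 2.19. Within the 150 bases before the start, 14 of the 38 genes (36.8%) held an E2F motif, beside 11.4% of tested protein-coding genes, and the medians with and without one were 1.81 and 1.74. These are matches of letters, and binding was not measured.

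All 6 licensing genes were higher in iRGCs, with a median log2 fold change of 2.31, but subunits of one complex lay far apart. Orc1, the largest subunit of the origin recognition complex (chr4:108579423-108614833), had 8.39, 11.2 and 11.1 CPM in iRGC replicates 1 to 3 and 1.46, 1.93 and 0.968 CPM in cRGC replicates 1 to 3. It was the gene with the largest fold change of the 46, with iRGC levels above cRGC levels by 2.81 on the log2 scale (SE 0.39, adjusted p = 0.000624, edgeR). Orc6, another subunit of the complex (chr8:85299632-85308278), had 50.9, 51.2 and 61.8 CPM in iRGCs and 34.8, 35.7 and 32.3 CPM in cRGCs. The groups did not overlap, but Orc6 differed by only 0.67 on the log2 scale (SE 0.13, adjusted p = 0.00371). Orc2 lay between them at 0.92, though 29.8% of its exonic bases are shared with Nif3l1 on the other strand. The remaining subunits moved less. Orc3 passed at 0.30 (SE 0.13, adjusted p = 0.0913), while Orc4 (-0.13, SE 0.18) and Orc5 (0.07, SE 0.15) did not pass the test. These 3 subunits are named because they complete the complex.

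The ratio of Orc1 to Orc2 counts was 0.125, 0.175 and 0.170 in the iRGC libraries and 0.0402, 0.0561 and 0.0291 in the cRGC libraries. Relative to Orc2, Orc1 was thus scarcer in every cRGC library than in any iRGC library. The difference in the log2 ratio was 1.94. For this and 8 other ratios, the exact permutation test (two-sided, 3 libraries against 3) cannot give a p below 0.1. The Orc1 to Orc2 ratio reached that smallest exact permutation p, which became 0.129 after Benjamini-Hochberg adjustment over the 9 ratios, as did 6 others.

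The loading factors were also low in cRGCs. Cdc6, which recruits the MCM ring, had 47.9, 44.0 and 41.8 CPM in iRGCs and 4.15, 10.5 and 6.42 CPM in cRGCs. The groups lay far apart (log2 fold change 2.66, SE 0.31, adjusted p = 0.000314, edgeR). Cdt1, the partner of Cdc6 in loading, had a log2 fold change of 2.30, and Gmnn, which encodes geminin, the inhibitor of Cdt1, had 2.31. In iRGCs, Gmnn had the highest level per kilobase of exon of the licensing genes, 32.3 CPM per kilobase, and in cRGCs its level of 6.49 was below those of Orc6 (13.9) and Orc2 (9.00). Cdt1 protein belongs to G1 phase and geminin to S, G2 and M phases, so the ratio of their transcripts was followed too. Gmnn to Cdt1 was 0.612, 0.705 and 0.724 in iRGCs and 0.480, 0.862 and 0.580 in cRGCs. The libraries overlapped, with a difference of 0.13 in the log2 ratio (exact permutation p = 0.6), and without cRGC replicate 1 the sign turned, to -0.06.

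The MCM genes encode the ring of the helicase, and all 6 had higher iRGC levels, by log2 values from 1.64 (Mcm7) to 2.67 (Mcm3) and a median of 2.22. Mcm3 (chr1:20802968-20820312) had 214, 203 and 221 CPM in iRGCs and 16.8, 52.4 and 30.9 CPM in cRGCs. The iRGC libraries were nearly level, while the cRGC libraries differed among themselves, with replicate 2 highest (log2 fold change 2.67, SE 0.34, adjusted p = 0.000475, edgeR). Mcm6 had the highest level of the 6 per kilobase of exon, 72.0 CPM per kilobase in iRGCs and 19.4 in cRGCs. Its CPM were 343, 320 and 345 in iRGCs and 71.9, 109 and 90.1 in cRGCs. Mcm7, which hosts the microRNA genes Mir25 and Mir93, had 167, 182 and 187 CPM in iRGCs and 44.1, 68.2 and 59.4 CPM in cRGCs, the smallest fold change of the ring (1.64, SE 0.16, adjusted p = 0.000218). MCM subunits join one ring in equal numbers. The ratio of Mcm3 to Mcm7 counts was 1.11 to 1.28 in iRGCs and 0.380 to 0.768 in cRGCs, a pair chosen for this gap and given with no test.

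The ratio of Mcm2 to Orc2 sets the helicase against a licensing subunit that changed less. It was 3.29, 3.41 and 3.28 in iRGCs and 0.939, 1.92 and 1.54 in cRGCs. The iRGC libraries lay within a narrow band and the cRGC libraries below it, with a difference of 1.24 in the log2 ratio (exact permutation p = 0.1, the smallest value possible).

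The helicase activation genes ranged widely. Cdc45 (chr16:18780447-18811987) had 60.2, 49.3 and 46.2 CPM in iRGCs and 2.96, 11.7 and 9.10 CPM in cRGCs. The lowest value was that of cRGC replicate 1 (log2 fold change 2.71, SE 0.42, adjusted p = 0.00107, edgeR). Mcm10, which helps to fire the loaded helicase, had 66.3, 63.9 and 57.0 CPM in iRGCs and 5.997, 16.1 and 8.62 CPM in cRGCs. GINS is a complex of 4 subunits, and its genes were spread over 2.43 (Gins2), 1.63 (Gins1), 1.39 (Gins3) and 0.56 (Gins4) on the log2 scale. Gins2 shares 67.3% of its exonic bases with Gse1 on the other strand, so its counts are uncertain. Gins4 (chr8:23226616-23237659), with the highest level per kilobase of this group, had 30.1, 40.6 and 37.6 CPM in iRGCs and 17.8, 27.3 and 28.5 CPM in cRGCs. The highest cRGC library stood just under the lowest iRGC library. Its adjusted p of 0.0666 (SE 0.21, edgeR) was the highest among the 45 genes that passed, and it rose to 0.191, 0.135 and 0.178 without iRGC replicate 2, iRGC replicate 3 or cRGC replicate 1, the last with a log2 fold change of 0.36.

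In the clamp and its loader lay the gene that did not pass. Pcna (chr2:132249162-132253314), the clamp itself, had 127, 127 and 147 CPM in iRGCs and 23.6, 44.0 and 34.6 CPM in cRGCs (log2 fold change 1.97, SE 0.21, adjusted p = 0.000253, edgeR). The annotation names 2 pseudogenes of Pcna, Pcna-ps1 and Pcna-ps2, which could have taken or lent reads. Rfc1, the large subunit of the loader (chr5:65261850-65335670), had 153, 135 and 132 CPM in iRGCs and 122, 106 and 146 CPM in cRGCs. The libraries overlapped, and Rfc1 was that gene (log2 fold change 0.17, SE 0.14, adjusted p = 0.37, edgeR). Its log2 fold change was 0.10 without iRGC replicate 1, 0.08 without cRGC replicate 2 and 0.31 without cRGC replicate 3, and it passed in none of these. Per kilobase of exon it was at 23.3 CPM in iRGCs and 20.7 in cRGCs, and in cRGCs that was above Pcna, at 14.2. The small subunits of the loader ranged from 0.50 (Rfc2) and 0.94 (Rfc3) to 1.68 (Rfc4) and 1.69 (Rfc5). Summed over clamp and loader, the levels were 498 to 505 CPM in iRGCs and 251 to 301 CPM in cRGCs, a ratio of 1.84, against 4.32 for the MCM ring.

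All 9 genes of the polymerases and primase passed in the same direction, with a median log2 fold change of 1.73. Pole2, the second subunit of the leading strand polymerase, had 18.7, 17.6 and 18.0 CPM in iRGCs and 2.08, 5.49 and 4.87 CPM in cRGCs. It had the largest difference of the group (log2 fold change 2.12, SE 0.35, adjusted p = 0.00161, edgeR). Prim2, the large subunit of primase, had 39.3, 39.8 and 42.0 CPM in iRGCs and 17.1, 26.1 and 17.2 CPM in cRGCs, with the smallest difference (1.00, SE 0.19, adjusted p = 0.00325). Prim1, its catalytic partner, had 1.97. Pold2, a subunit of the lagging strand polymerase, had the highest level per kilobase in iRGCs, 29.9 CPM per kilobase, and 10.7 in cRGCs. Its log2 fold change was 1.49.

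Among the small accessory subunits of the same polymerases, Pole3, a partner of Pole4 that was named after its value was seen, was higher in iRGCs (log2 fold change 0.92, SE 0.13, adjusted p = 0.000834, edgeR), while Pole4 and Pold4 did not pass the test. Pole4 had 34.2, 29.1 and 31.9 CPM in iRGCs and 26.2, 28.1 and 26.4 CPM in cRGCs, the latter all lower (0.24, SE 0.14, adjusted p = 0.226, edgeR). The ratio of Pole2 to Pole4 counts was 0.546, 0.604 and 0.565 in iRGCs and 0.0792, 0.195 and 0.184 in cRGCs, a difference of 2.01 in the log2 ratio. Pold3 to Pold4 was 94.1, 22.6 and 19.0 in iRGCs and 4.86, 11.4 and 5.39 in cRGCs, a difference of 2.36. Neither ratio overlapped between the populations, and both reached the smallest exact permutation p of 0.1. The value of 94.1 rests on a low Pold4 level of 1.29 CPM in iRGC replicate 1, and without that library the difference was 1.63. Pold4 itself did not pass (log2 fold change -0.78, SE 0.52, adjusted p = 0.278), and 24.6% of its exonic bases are shared with another annotated gene.

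**Figure D2:**
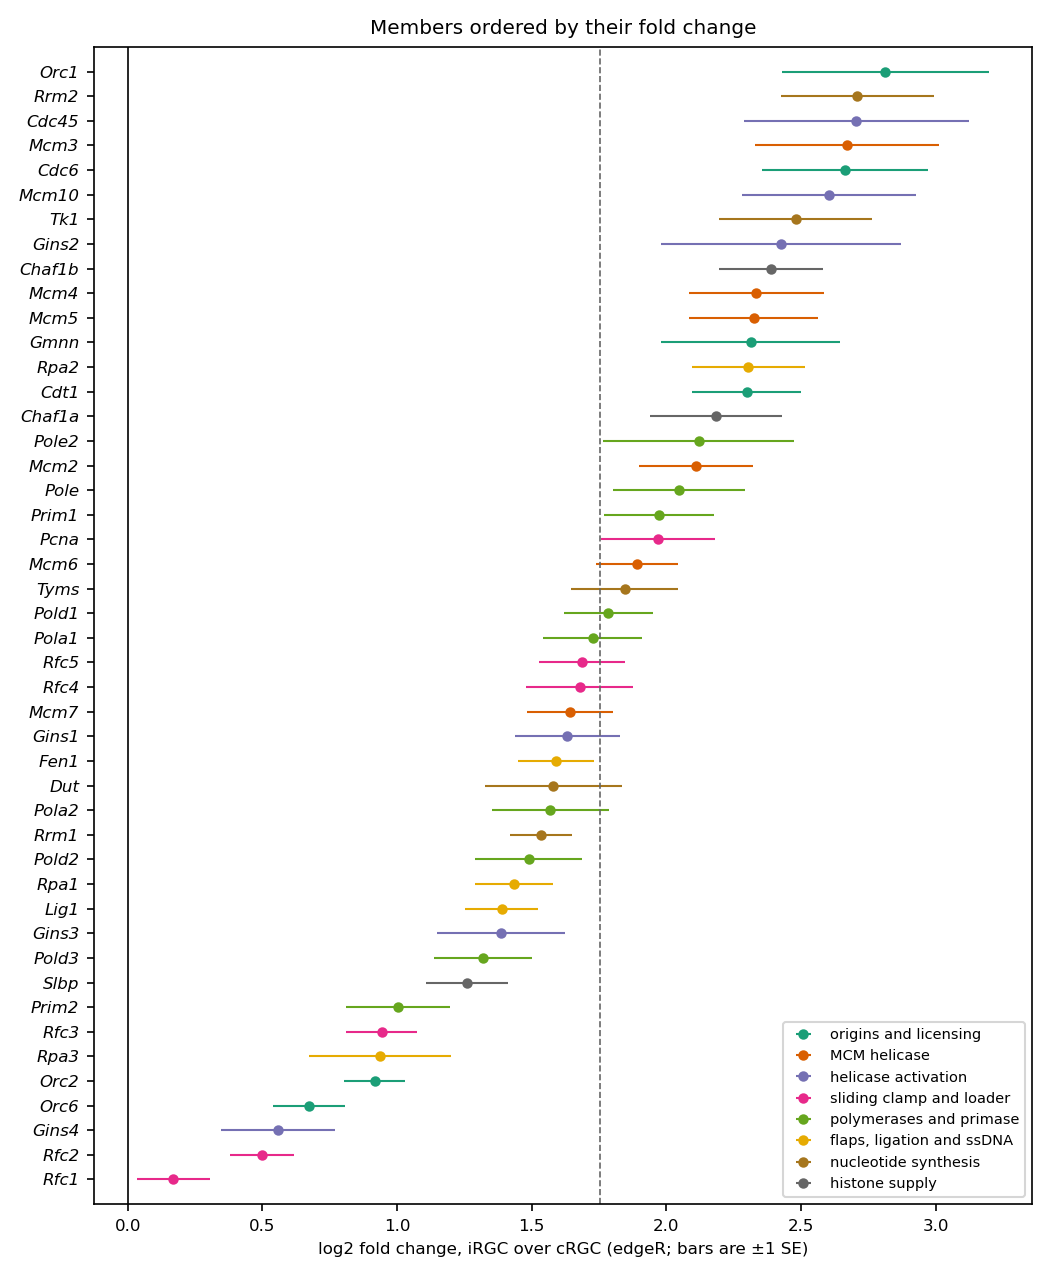
Log2 fold change of iRGCs over cRGCs for the 46 genes, ordered by size and coloured by role, with bars of 1 SE from edgeR and a dashed line at the median of 1.76. Subunits of one complex stand far apart, as Orc1 (2.81) and Orc6 (0.67) or Rfc5 (1.69) and Rfc1 (0.17) do.

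The genes for Okazaki fragment joining and for single-stranded DNA binding had a median of 1.43. Rpa2, a subunit of the single-stranded DNA binding protein RPA, had 118, 96.2 and 82.6 CPM in iRGCs and 15.99, 25.8 and 18.3 CPM in cRGCs (log2 fold change 2.31, SE 0.21, adjusted p = 0.000205, edgeR). Rpa3, the smallest RPA subunit, had 16.4997, 29.9 and 23.4 CPM in iRGCs and 12.5, 9.42 and 14.5 CPM in cRGCs. Its difference was less than that of Rpa2 or of Rpa1 (1.43), at 0.94 (SE 0.26, adjusted p = 0.0206). Lig1, the ligase that seals the lagging strand, had the highest level per kilobase of this group in iRGCs, 56.8 CPM per kilobase against 21.7 in cRGCs. Its CPM were 269, 228 and 230 in iRGCs and 78.8, 106 and 92.9 in cRGCs. Fen1, the flap nuclease, had a log2 fold change of 1.59, but 84.2% of its exonic bases lie over Tmem258 and Gm10143.

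All 5 nucleotide genes were higher in iRGCs, with a median log2 fold change of 1.84. Rrm2, the small subunit that is made in S phase (chr12:24708241-24714146), had 183, 158 and 141 CPM in iRGCs and 15.6, 36.5 and 21.5 CPM in cRGCs. The fold change was large (log2 value 2.71, SE 0.28, adjusted p = 0.000242, edgeR), and per kilobase it was the most abundant gene of the group in iRGCs, at 57.9 CPM against 8.85 in cRGCs. Rrm1, the large subunit, had 292, 294 and 294 CPM in iRGCs and 88.0, 112 and 103 CPM in cRGCs (1.54, SE 0.11, adjusted p = 0.000201). The 3 iRGC values of Rrm1 differed by a coefficient of variation (CV) of 0.489%. Tk1 had 2.48, Tyms 1.85 and Dut 1.58.

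Rrm2b encodes the alternative small subunit, used outside S phase for repair and for mitochondrial DNA, and it moved the other way. It had 8.46, 14.4 and 18.0 CPM in iRGCs and 23.6, 27.3 and 31.0 CPM in cRGCs (log2 fold change -1.005, SE 0.27, adjusted p = 0.0175, edgeR). The ratio of Rrm2 to Rrm2b counts was 21.6, 11.0 and 7.86 in the iRGC libraries and 0.660, 1.34 and 0.693 in the cRGC libraries. Per kilobase of exon the mean ratio was 40.5 in iRGCs and 2.80 in cRGCs, so Rrm2 remained the more abundant of the pair per length in both. The thymidine kinases showed the same contrast. Tk1 is the cytosolic S phase enzyme and Tk2 the mitochondrial one, and Tk1 to Tk2 was 0.699, 0.882 and 0.619 in iRGCs and 0.0680, 0.148 and 0.0952 in cRGCs. The log2 differences of these ratios were 3.86 and 2.88, the largest of the 9 ratios, and Rrm2 to Rrm1 differed by 1.25. Each had the smallest possible exact permutation p of 0.1. Tk2 itself was lower in iRGCs (-0.35, SE 0.13, adjusted p = 0.0651), a call lost when any library but iRGC replicate 1 was left out, with adjusted p up to 0.215.

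**Figure D3:**
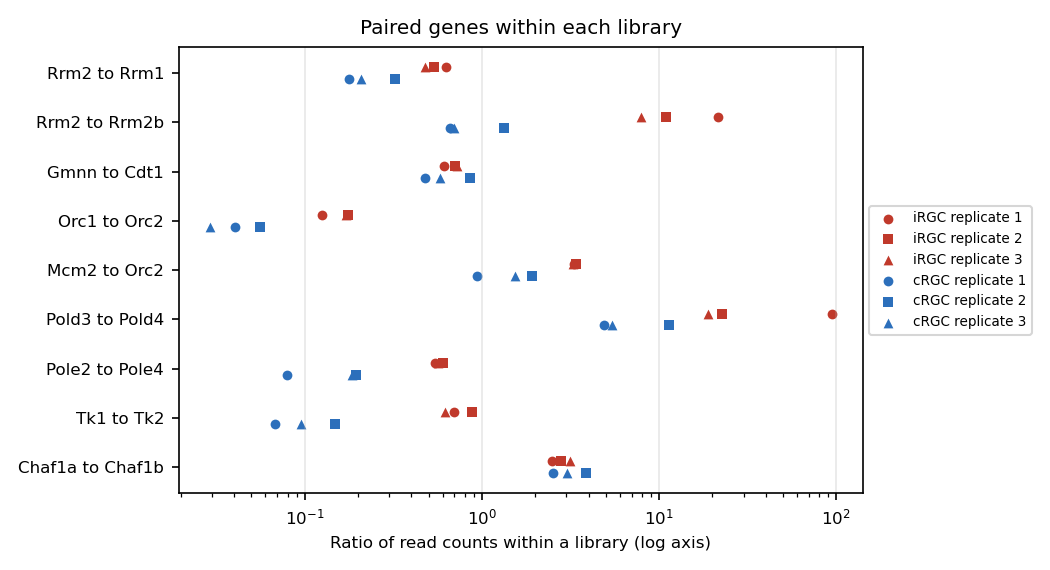
Ratio of read counts of paired genes within each library on a log axis, with iRGC libraries in red and cRGC libraries in blue. The populations do not overlap in 7 of the 9 ratios, and they overlap in Gmnn to Cdt1 and in Chaf1a to Chaf1b.

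The genes that supply histones to new DNA had log2 fold changes of 2.39 (Chaf1b), 2.19 (Chaf1a) and 1.26 (Slbp). Chaf1b, a subunit of chromatin assembly factor 1, had 47.3, 39.6 and 38.1 CPM in iRGCs and 6.96, 9.49 and 7.39 CPM in cRGCs (SE 0.19, adjusted p = 0.000205, edgeR). Chaf1a, the large subunit of that factor, shares 52.5% of its exonic bases with Ubxn6. Chaf1a to Chaf1b was 2.50, 2.81 and 3.13 in iRGCs and 2.51, 3.87 and 3.03 in cRGCs, ratios that overlapped (log2 difference -0.14, exact permutation p = 0.6, with a log2 difference of 0.02 without cRGC replicate 2). Slbp, which binds the stem-loop of histone messenger RNAs, had 97.9, 94.1 and 99.4 CPM in iRGCs and 37.2, 49.8 and 34.8 CPM in cRGCs. Per kilobase it was the most abundant of the 3, at 15.98 CPM in iRGCs and 6.68 in cRGCs.

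The spread between replicates was itself uneven. The median CV of the 46 genes was 7.99% among iRGC libraries and 25.0% among cRGC libraries, and it was larger in cRGCs for 42 of them (91.3%). Over all tested genes the order was the reverse, with medians of 19.3% and 14.1%, and 37.0% of genes more variable in cRGCs. Among the cRGC libraries, replicate 2 had the highest level of 36 of the genes (78.3%, against 33.2% of all tested genes) and replicate 1 the lowest of 38 (82.6%, against 38.4%). The MCM genes showed this at its clearest, with median CVs of 4.25% and 34.7% and with replicate 2 highest in all 6. In the clamp and loader group, the CVs were 8.21% and 14.7%. The genes share libraries, so these counts describe 3 libraries and were not tested.

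**Figure D4:**
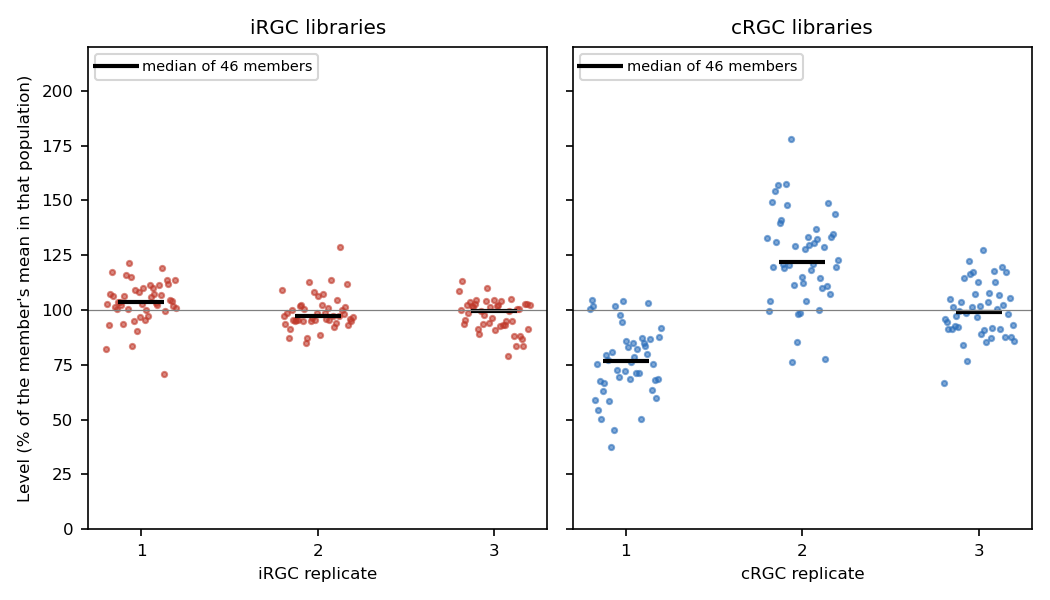
Level of each of the 46 genes in each library as a percentage of that gene's mean in its population (iRGC left, cRGC right), with a bar at the median of the 46 genes. The iRGC libraries lie close to 100%, while in cRGCs replicate 1 lies mostly below and replicate 2 mostly above it.

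Gene lists for the rest of the pathway were set beside these genes, with the same test. The counts of this and the later lists stand beside 23.3% of all tested genes higher in iRGCs and 23.1% lower. Of 43 other replication factors, 36 were higher in iRGCs, 1 was lower and 6 did not pass, with a median log2 fold change of 1.43. Dtl, which directs the destruction of Cdt1 in S phase, had 119, 114 and 123 CPM in iRGCs and 8.96, 23.4 and 17.9 CPM in cRGCs (2.82, SE 0.30, adjusted p = 0.000244, edgeR). Ticrr (treslin), which acts in origin firing with Cdc45, had 96.7, 71.9 and 88.2 CPM in iRGCs and 11.6, 15.3 and 11.0 CPM in cRGCs (2.76, SE 0.18, adjusted p = 0.000201). The gene that was lower was Tonsl, which binds histones behind the fork (-0.30, SE 0.12, adjusted p = 0.0857). Its call was lost in 7 of the alternatives, including each library left out apart from iRGC replicate 3, and it fell to -0.19 without iRGC replicate 1.

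Of 34 other enzymes of nucleotide synthesis, 20 were higher in iRGCs, 6 were lower and 8 did not pass, with a median log2 fold change of 0.54. Among all tested genes 23.3% were higher and 23.1% lower, so the share of lower enzymes was under that of all genes. Shmt1, a source of one-carbon units for thymidylate, had 29.2, 39.9 and 31.3 CPM in iRGCs and 3.92, 8.04 and 5.07 CPM in cRGCs (2.56, SE 0.29, adjusted p = 0.000287, edgeR). The lower genes included Rrm2b and Tk2. Nme2 had the lowest fold change (-1.26, SE 1.37, adjusted p = 0.513), from -1.98 to -0.68 with 1 library left out at a time, at levels between 0 and 1.46 CPM, and 48.9% of its exonic bases are shared with Gm20390 on the same strand.

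Of 13 E2F and Rb factors, 11 were higher in iRGCs, 1 was lower and 1 did not pass. E2f2, an activator of S phase genes, had 58.6, 44.5 and 47.3 CPM in iRGCs and 7.50, 11.8 and 6.39 CPM in cRGCs (2.55, SE 0.25, adjusted p = 0.00022, edgeR). E2f8, a repressor of the family, had 72.9, 67.4 and 83.1 CPM in iRGCs and 7.92, 19.4 and 11.1 CPM in cRGCs (2.54, SE 0.30, adjusted p = 0.000333). Rb1, which holds activating E2Fs in check, was lower, with 120, 91.9 and 107 CPM in iRGCs and 138, 134 and 161 CPM in cRGCs (-0.44, SE 0.13, adjusted p = 0.0265). Without cRGC replicate 3 the adjusted p of Rb1 was 0.123. Rbl2 (p130), known from quiescent cells, had -0.37 (SE 0.19, adjusted p = 0.152), and passed at 0.034 without iRGC replicate 3. Rbl1, also of the Rb family and named after its value was seen, was higher in iRGCs (2.08, SE 0.20, adjusted p = 0.000217, edgeR).

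Most genes of progenitor, precursor and mitosis lists moved with the replication genes. The progenitor list is not confined to progenitors, as the paper describes its members Lhx2, Sox2 and Sox9 as expressed in iRGCs. Of 16 retinal progenitor markers 13 were higher in iRGCs, 1 was lower and 2 did not pass, beside 23.3% higher and 23.1% lower among all tested genes. The progenitor markers summed to 9529, 9016 and 7879 CPM in iRGC replicates 1 to 3 and to 2542, 3437 and 3254 CPM in cRGC replicates 1 to 3. The most abundant, Ccnd1 (cyclin D1, itself a cell cycle gene), had 3362, 2649 and 2520 CPM in iRGCs and 277, 779 and 471 CPM in cRGCs, and none of the 16 was at 0 in all libraries of a population. As with the replication genes, cRGC replicate 2 had the highest sum and replicate 1 the lowest. All 12 neurogenic precursor markers were higher in iRGCs, with sums of 2107, 2269.5 and 1963 CPM against 449.8, 746 and 648 CPM, Hes6 being the most abundant and none at 0. Of 40 genes of mitosis 39 were higher, with a median log2 fold change of 2.42 and sums of 7942, 6693 and 6286 CPM against 978, 1933 and 1313 CPM. Top2a, the most abundant, stands in this list and among the other replication factors. The part of these cell types in the difference was not tested.

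RGC markers went the other way, with 17 of 18 lower in iRGCs, beside 23.1% of all tested genes. This list is not neutral between the populations. The paper reports Pou4f1, Isl2 and Sncg from it as cRGC genes, and Pou4f2 (Brn3b) is the locus of the Cre driver of cRGCs. The 18 markers were present in all 6 libraries, with sums of 2662, 3752 and 5701 CPM in iRGCs and 14859, 13424 and 16456 CPM in cRGCs, and Nefm was the most abundant. None was at 0 in all libraries of a population, and Thy1 was the marker that did not pass, with 6.18, 1.33 and 13.8 CPM in iRGCs and 46.5, 39.1 and 3.19 CPM in cRGCs, which overlapped. Among the iRGC libraries this sum ranged from 2662 to 5701 CPM, while the sum of the 46 replication genes ranged from 4424 to 4702 CPM.

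**Figure D5:**
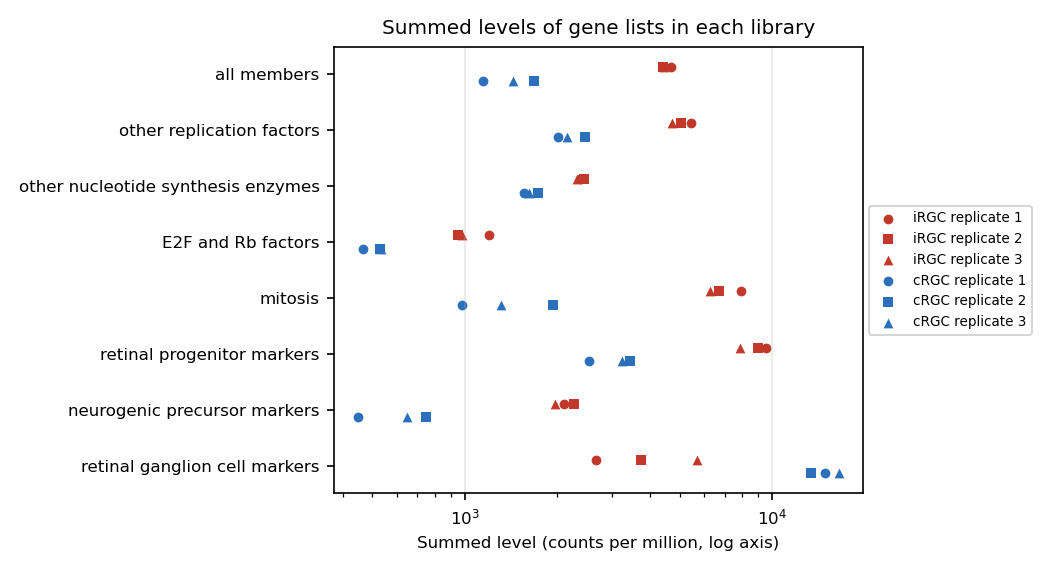
Summed level of each gene list in each library, in TMM-scaled CPM on a log axis, with iRGC libraries in red and cRGC libraries in blue. Only the RGC marker list has its cRGC libraries above its iRGC libraries, and for the 46 genes and the mitosis, progenitor and precursor lists cRGC replicate 1 is lowest and replicate 2 highest among cRGCs.

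Within a library, the summed level of the 46 genes could be set against other lists. Its ratio to the progenitor marker sum was 0.493, 0.491 and 0.563 in iRGCs and 0.451, 0.489 and 0.442 in cRGCs. These ratios did not overlap, though 0.491 and 0.489 nearly met. The progenitor list holds Pax6, Six3 and Vim, which were not higher in iRGCs by the test. Their mean levels were 838, 350 and 521 CPM in iRGCs and 902, 451 and 401 CPM in cRGCs. The mean list sums were 8808 and 3078 CPM, so these genes weigh more in cRGCs. With them taken out of the list, the order of the ratio turns. Against the mitosis genes the order also turned, with 0.592, 0.661 and 0.705 in iRGCs and 1.17, 0.870 and 1.10 in cRGCs. For the MCM ring alone, the ratio to the mitosis sum was 0.169, 0.193 and 0.216 in iRGCs and 0.222, 0.209 and 0.232 in cRGCs, which overlapped. These ratios were chosen with the sums known and are given with no test.

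Markers of blood vessels and blood cells were also mostly higher in iRGCs, beside 23.3% of all tested genes. Of 13 endothelial markers, 8 were abundant enough to test and all 8 were higher, with sums of 473, 740 and 437 CPM in iRGCs and 89.4, 110 and 72.5 CPM in cRGCs. Kdr was the most abundant, with 366, 320 and 418 CPM in iRGCs, and Cdh5, Tie1 and Erg were at 0 in all 3 cRGC libraries. Without Kdr, the other endothelial markers summed to 107, 419 and 19.0 CPM in iRGCs and to 5.69, 6.94 and 4.94 CPM in cRGCs, with replicate 2 far above the other iRGC libraries. Of 9 mural markers 6 were tested and 4 were higher (sums of 138, 281 and 111 CPM against 21.9, 32.6 and 23.8 CPM, Notch3 being the most abundant, with Acta2 and Kcnj8 at 0 in cRGCs). Without Notch3 the mural sums were 25.5, 164 and 27.9 CPM in iRGCs and 4.84, 5.87 and 5.13 CPM in cRGCs, again with iRGC replicate 2 far above the others. Of 9 microglia markers 6 were tested and 4 were higher (17.8, 26.1 and 17.8 CPM against 1.19, 4.42 and 1.65 CPM, Csf1r being the most abundant). Of 7 erythroid markers 4 were tested and all were higher (12.2, 92.7 and 15.2 CPM against 0, 5.11 and 0.290 CPM, Hbb-bs being the most abundant, with Alas2 at 0 in cRGCs). Without iRGC replicate 2, the median log2 fold change of the 46 replication genes was 1.81 in place of 1.76, with 44 genes higher. The sums of these marker lists stayed above all cRGC libraries in the remaining iRGC libraries, so that fit does not take these cells out. The part of these cells in the difference was not tested.

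Some replication genes start close to another gene on the opposite strand. For 11 of the 46 genes, a tested protein-coding gene starts there within 1000 bases. Of these 11 partners 2 were higher in iRGCs, 2 lower and 7 did not pass, beside 23.3% higher and 23.1% lower among all tested genes, with a median log2 fold change of 0.26, against 1.64 for the 11 replication genes beside them. Cdc45 (2.71) starts 208 bases from Ufd1, a gene of protein degradation that had 65.1, 62.9 and 72.5 CPM in iRGCs and 75.3, 68.5 and 70.9 CPM in cRGCs. Ufd1 overlapped between the populations (log2 fold change -0.10, SE 0.11, adjusted p = 0.535, edgeR). Orc1 (2.81) starts 87 bases from Prpf38a, a splicing factor gene with 0.26 (SE 0.13, adjusted p = 0.141). Other partners that did not pass had larger but less certain values. Afmid beside Tk1 had 1.46 (SE 0.84, adjusted p = 0.209, edgeR) and Pxmp2 beside Pole had 0.93 (SE 0.73, adjusted p = 0.358). The partners that were higher were Smyd4 beside Rpa1 (1.09) and Prkdc beside Mcm4 (0.44), and those that were lower were Vps35 beside Orc6 (-0.41) and Umad1 beside Rpa3 (-0.45). These genes were named after their values were seen.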

How the data were processed

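RNA-seq libraries of 3 iRGC and 3 cRGC samples were analysed, and the 13 ATAC-seq samples were not analysed here. Per the methods and the submitters' processing notes, the authors used HISAT2 2.1.0 to align reads to mm10 and HTSeq 0.11.1 to count them on Ensembl genes of GRCm38, and the deposited counts are not normalized. Whether strand was used in counting is not given in the sources used here, so genes that share exonic bases are uncertain. Of the 46 genes, 14 share over 5% of their exonic bases with another gene and 29 share none. HTSeq's tallies that name no gene, 43.1% to 47.3% of all tallies, were left out. Symbols, positions and exon lengths came from GENCODE M21, which named 46574 of 47069 identifiers.

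Counts were filtered with filterByExpr and fitted in edgeR 4.0.16 (R 4.3.3) with TMM normalization, whose factors lay between 1.03 and 1.10 for iRGCs and between 0.921 and 0.952 for cRGCs, and with the quasi-likelihood test, two-sided, with Benjamini-Hochberg adjustment over 15941 genes. The study's threshold of an adjusted p under 0.1 was kept. SEs were derived from the fold change and its F statistic. The labels call the libraries replicates without naming separate litters, so p-values measure the spread between these libraries. Alternatives were DESeq2 1.42.0, limma 3.58.1 voom, other size factors and filters, an adjusted p under 0.05, a replicate block and each library left out. The fits were also tested on simulated data, and the outcome is not given here.

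Genes, lists, ratios and motifs were chosen with earlier results of these data known. By rule, the text names in each role the genes with the largest and the smallest fold change and the highest level per kilobase, the genes that did not pass, the 2 at each end of the pathway lists (some of these results are not reported here) and the genes of the ratios. Others were named after their values were seen. Promoter sequences are RefSeq's for GRCm38.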

Additional observations from a re-analysis of the deposited data

How the results depend on the processing

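The count of the 46 genes higher in iRGCs was 44 or 45, and 0 were lower, under all alternatives run, 38 to 40 had a log2 fold change above 1 as well, and the median ranged from 1.62 to 1.92. Gins4 was the gene lost besides Rfc1. All tested genes past the threshold numbered 6303 to 7790. For 40 named genes, 519 alternative values held 500 on the same side of the threshold and in the same direction as reported, 18 that no longer passed (of Gins4, Tonsl, Tk2 and Rb1), 1 that newly passed (Rbl2) and 0 that reversed. The summed level of the 46 genes was 2.90 to 3.50 times higher in iRGCs with each library left out, and 3.66 times in CPM of the library total without TMM.

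Of the 9 ratios, Gmnn to Cdt1 ranged from -0.0588 to 0.363 (log2 difference) with each library left out, and was -0.0588 without cRGC replicate 1. Chaf1a to Chaf1b ranged from -0.292 to 0.0214, and was 0.0214 without cRGC replicate 2. In the 150 bases before the start in place of the whole window, 14 of 38 genes held an E2F motif and 3 a CHR element, which follows from the shorter window.

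Libraries with the same replicate number did not deviate together (r over genes of -0.0121, -0.0237 and -0.055), so the numbers were not taken as pairs. With the replicate number as a block, 45 genes were higher, the median was 1.77 and 42.3% of tested genes passed. With 3 libraries per population and a biological coefficient of variation of 36.3%, small differences at low counts may have been missed.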
